A study of Mus musculus with 9 samples.

Results

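AP-1 is a family of dimeric transcription factors, and the 10 genes described here encode its best known subunits and partners in macrophages: Fos, Fosb, Fosl1 and Fosl2 of the Fos family, Jun, Junb and Jund of the Jun family, and Atf3, Batf and Maff, which carry the same kind of dimerization domain. The members were chosen by gene symbol in the deposited count table, and all 10 were found among its 53465 genes and passed the filter that left 11950 genes for testing. They were followed in RNA-Seq of mouse bone marrow derived macrophages (BMDMs), cells grown from the marrow of male wild-type C57BL/6 mice (the C57BL/6J substrain in the study's methods) with CSF1 at 50 ng/ml and 10% serum for 5 to 10 days. Of the 9 libraries, 3 came from untreated BMDMs (UNX). Another 3 came from BMDMs given medium conditioned by pulmonary artery adventitial fibroblasts of control neonatal calves (CO-CM), and the last 3 from BMDMs given medium conditioned by fibroblasts of calves with hypoxia-induced pulmonary hypertension (PH-CM). The labels give the exposure as 16 hours in one place and 24 hours in another, and the study's methods give a time between these. The conditioned medium is bovine and the responding cells are murine, and the untreated cells received no medium conditioned by fibroblasts, so CO-CM is the control for such medium as such. By the study's methods the conditioned medium was given 10% serum just before use, and whether it also held added CSF1 is not stated. Comparisons with UNX may therefore also hold a change of medium and serum. The study describes the libraries of a group as biological replicates from repeats of the experiment. Whether they came from separate mice is not stated. By the study's methods each conditioned medium was pooled from several fibroblast populations, so the spread between calves was not measured. The p-values therefore measure the spread between these libraries only. In bulk RNA, a change in the amount of transcript per cell and a change in the share of cells that hold it cannot be told apart.

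AP-1 proteins bind DNA as pairs through a basic region and a leucine zipper. Jun proteins can pair with one another or with Fos proteins, whereas Fos proteins need a partner, usually a Jun protein. Fos, Fosb, Jun, Junb and Atf3 are classic immediate early genes, which serum, growth factors, stress or microbial products switch on through MAP kinases without new protein synthesis, while Fosl1 and Fosl2 generally follow later and Jund is expressed more constantly. In macrophages, AP-1 factors work beside the lineage factor PU.1 at enhancers of inflammatory and tissue remodelling genes.

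The members lie on several chromosomes of GRCm38, in the GENCODE annotation. Fos spans chr12:85473890-85477273 and Batf lies on the same chromosome at chr12:85686669-85709087, both on the plus strand. Fosb lies at chr7:19302696-19310051 on the minus strand, Fosl1 at chr19:5447547-5455946 on the plus strand and Fosl2 at chr5:32135801-32157842 on the plus strand. Jun, a gene of 1 exon, lies at chr4:95049034-95052222 on the minus strand. Junb at chr8:84974484-84978718 on the minus strand and Jund at chr8:70698949-70700616 on the plus strand share a chromosome. Atf3 spans chr1:191170296-191218039 on the minus strand and Maff chr15:79346621-79359076 on the plus strand. Exons of 4 members overlap exons of a gene on the opposite strand, and the counting options listed for the study set no strand, so reads were counted without strand and reads that fell on both genes were left out. Fosl1 shares 1163 of its 2033 exonic bases with Ccdc85b, which had 8943 counted reads over the 9 libraries against 1757 for Fosl1, so the values of Fosl1 are uncertain. The deposited RPKM of Fosl1 also implies an exonic length of 1707 bases, other than the one annotated here, and its level was not corrected for the overlap. The deposited RPKM of Maff implies 2119 bases beside 2594 annotated, so its level against other members is uncertain too. Jund shares 877 of 1668 exonic bases with the antisense transcript Gm11175, which had 0 counted reads. Reads from these bases may have gone uncounted while RPKM divides by the whole length, so the level of Jund against other members is uncertain and may be too low. Jun shares 232 bases with the antisense Junos and Junb 173 bases with Prdx2, each under 8% of the exonic length of the member.

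RefSeq promoter windows (GRCm38.p6, 250 bases before and 50 bases from the start) were at hand for 9 of the 10 members, and Maff had 3 of them, which made 11 windows. Each window was searched on both strands for TGACTCA, the consensus AP-1 element, for TGACGTCA, the cyclic AMP element that Jun and ATF pairs can bind, for the variant TGACATCA and for TGACGT, which is contained in TGACGTCA. TATAAA was searched on the strand of the gene. TGACTCA was in 0 of the 11 windows and in 5.20% of all 32851 promoter windows. TGACGTCA was in 1 window, the second of Maff, beside 1.79% of all windows. TGACATCA was in the windows of Jun and in the third of Maff, 2 of 11 beside 3.62%. TGACGT was in 4 windows (Fos, Atf3, Batf and the second of Maff) beside 7.51%, and TATAAA in 2 (Fos and Junb) beside 8.32%. The TATAAA of Fos lay before the start, from base -33, and that of Junb began at the start itself, from base 1. A match describes letters in this window and does not show that a factor binds there. The 250 bases before the start are printed for 4 members that carry the main expression patterns: Fos and Fosl2 were higher in PH-CM than in both other groups, Jun was lower under both media, and Atf3 moved in opposite directions under the media. The start is that of RefSeq, which lies 34706 bases from the GENCODE start of Atf3, inside its span, 671 bases from that of Fosl2 and at that of Fos and Jun. Of the windows searched but not printed, that of Jund has its start 1210 bases from the GENCODE start and lies outside the annotated gene. Capitals mark the matches, 5′ to 3′ on the strand of the gene.
Fos, chr12:85473640-85473889, plus strand, with TGACGT from base -66 and TATAAA from base -33 counted from the start:
Fos: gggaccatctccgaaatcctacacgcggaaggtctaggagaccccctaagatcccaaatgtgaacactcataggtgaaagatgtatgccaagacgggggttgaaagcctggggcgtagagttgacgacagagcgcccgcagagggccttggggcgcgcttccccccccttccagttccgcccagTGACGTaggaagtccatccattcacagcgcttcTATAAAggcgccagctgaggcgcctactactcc
Jun, chr4:95052223-95052472, minus strand, with TGACATCA from base -45:
Jun: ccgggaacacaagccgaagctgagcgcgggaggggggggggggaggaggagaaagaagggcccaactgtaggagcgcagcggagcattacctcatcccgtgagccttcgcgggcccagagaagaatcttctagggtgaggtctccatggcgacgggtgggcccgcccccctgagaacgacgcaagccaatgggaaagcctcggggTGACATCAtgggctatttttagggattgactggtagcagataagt
Atf3, chr1:191183334-191183583, minus strand, with the reverse complement of TGACGT from base -8:
Atf3: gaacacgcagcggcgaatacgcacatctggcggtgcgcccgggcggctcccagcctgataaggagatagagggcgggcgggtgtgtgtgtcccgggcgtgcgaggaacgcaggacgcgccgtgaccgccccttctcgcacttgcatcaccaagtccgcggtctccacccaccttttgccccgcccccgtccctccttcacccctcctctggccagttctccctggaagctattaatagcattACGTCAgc
Fosl2, chr5:32136222-32136471, plus strand, with none of the searched letters:
Fosl2: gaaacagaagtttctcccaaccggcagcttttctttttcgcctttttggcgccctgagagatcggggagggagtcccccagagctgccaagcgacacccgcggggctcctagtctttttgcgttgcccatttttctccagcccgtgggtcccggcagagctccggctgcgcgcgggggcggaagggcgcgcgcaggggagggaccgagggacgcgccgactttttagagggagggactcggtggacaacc

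The libraries held 62017933 to 84314201 counted reads. The least read member in any library was Fosb, with 22 to 366 reads, followed by Fosl1 with 84 to 379, Batf with 154 to 380 and Maff with 197 to 465. The other 6 members had at least 2125 reads in every library. Mates of a read pair were counted singly, so the sequenced fragments were fewer than these reads. The cells carried macrophage markers: the summed level of 8 markers (among them Adgre1, Cd68, Csf1r and Lyz2) was 11600 to 12500 CPM (reads scaled to a common library size by TMM) in UNX, 19100 to 20100 in CO-CM and 21100 to 22800 in PH-CM. Lyz2 alone, at 6850 to 15700 CPM, made up most of this sum. Of the 8, 7 rose in PH-CM and 6 in CO-CM against UNX, beside 31.3% and 28.0% of all genes tested, and 0 fell. Itgam (97.5 to 116 CPM in UNX, 75.7 to 100 in CO-CM) and Fcgr1 (93.9 to 106, 78.3 to 97.3) did not rise in CO-CM. Markers of neutrophils, mast cells and basophils, dendritic cells and lymphocytes were at a few CPM or less in sum. Those of fibroblasts were not low in sum, through their collagen genes. The 7 neutrophil markers summed to 1.68 to 2.65 CPM in UNX, 2.95 to 4.26 in CO-CM and 2.59 to 3.67 in PH-CM with Ly6g at 0. The one that could be tested, S100a8, rose in CO-CM (log2 1.39) and in PH-CM (log2 1.37) against UNX. Others, below the filter and untested, did not follow it: Ltf was 0.216 to 0.535 CPM in UNX, 0.117 to 0.590 in CO-CM and 0.0893 to 0.0966 in PH-CM, and S100a9 was 0.370 to 0.955, 0.380 to 0.703 and 0.238 to 0.538. The 5 mast cell and basophil markers summed to 1.57 to 3.34 CPM in UNX, 1.80 to 2.36 in CO-CM and 0.776 to 0.918 in PH-CM with Fcer1a and Ms4a2 at 0. Kit, the one that could be tested, fell in PH-CM against UNX (log2 -3.17) and against CO-CM (log2 -2.74). The untested Mcpt8 went the other way, with 2, 12 and 2 reads in UNX, 6, 0 and 0 in CO-CM and 33, 39 and 24 in PH-CM (0.380 to 0.628 CPM). The 5 dendritic cell markers summed to 0.324 to 0.885 and the 6 lymphocyte markers to 0 to 0.197 with Ncr1 at 0. The 7 fibroblast markers, mostly Col1a1 and Col1a2, summed to 197 to 249 CPM in UNX, 267 to 318 in CO-CM and 249 to 335 in PH-CM. Col1a1 alone was 99.8 to 170 CPM over the 9 libraries, above Fos, Fosl2 and Jund in UNX. None of the 7 was at 0 in every library. Outside the collagen genes, Pdgfrb was 3.2 to 5.5 CPM, Pdgfra 1.44 to 2.76, Dcn 0.71 to 3.16 and the untested Thy1 0 to 0.253. Of the 6 that could be tested, 4 rose in PH-CM and 2 in CO-CM against UNX and 1 rose in PH-CM against CO-CM. The part of these markers in the results below was not tested.

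PH-CM raised most of the AP-1 members. Against UNX, 6 of the 10 members rose (Fos, Fosb, Fosl2, Junb, Jund and Batf), 3 fell (Jun, Atf3 and Maff) and Fosl1 did not pass the test. A gene was called at an adjusted p of at most 0.05 by edgeR's quasi-likelihood test with Benjamini-Hochberg adjustment over all 11950 genes, written below as edgeR adjusted p, and a change of 1.2-fold or more in either direction. The response to PH-CM was broad, with 63.0% of all genes tested called, 31.3% higher and 31.7% lower. The 9 of 10 members called are therefore to be read beside that 63.0%. The median log2 fold change of the members was 0.82, beside 0.0072 over all genes tested.

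CO-CM gave another AP-1 profile. Against UNX, 3 members rose (Junb, Jund and Atf3) and 4 fell (Fosb, Fosl1, Jun and Maff), while Fos, Fosl2 and Batf did not pass the test. Over all genes 57.0% were called, 28.0% higher and 28.9% lower, and the median of the members was 0.05 beside 0.0002 over all genes tested. In the direct comparison of the media, 5 members were higher in PH-CM than in CO-CM (Fos, Fosb, Fosl2, Junb and Batf) and 1 was lower (Atf3). This comparison called 27.1% of all genes, 12.2% higher and 15.0% lower, and the median of the members was 0.56 beside -0.0064. Libraries of the compared groups did not overlap for 9 members in PH-CM against UNX (77.7% of all genes tested), for 7 in CO-CM against UNX (72.0%) and for 6 in PH-CM against CO-CM (50.2%). The PH-CM and CO-CM comparisons with UNX share the same untreated libraries and are given side by side only.

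**Figure D1:**
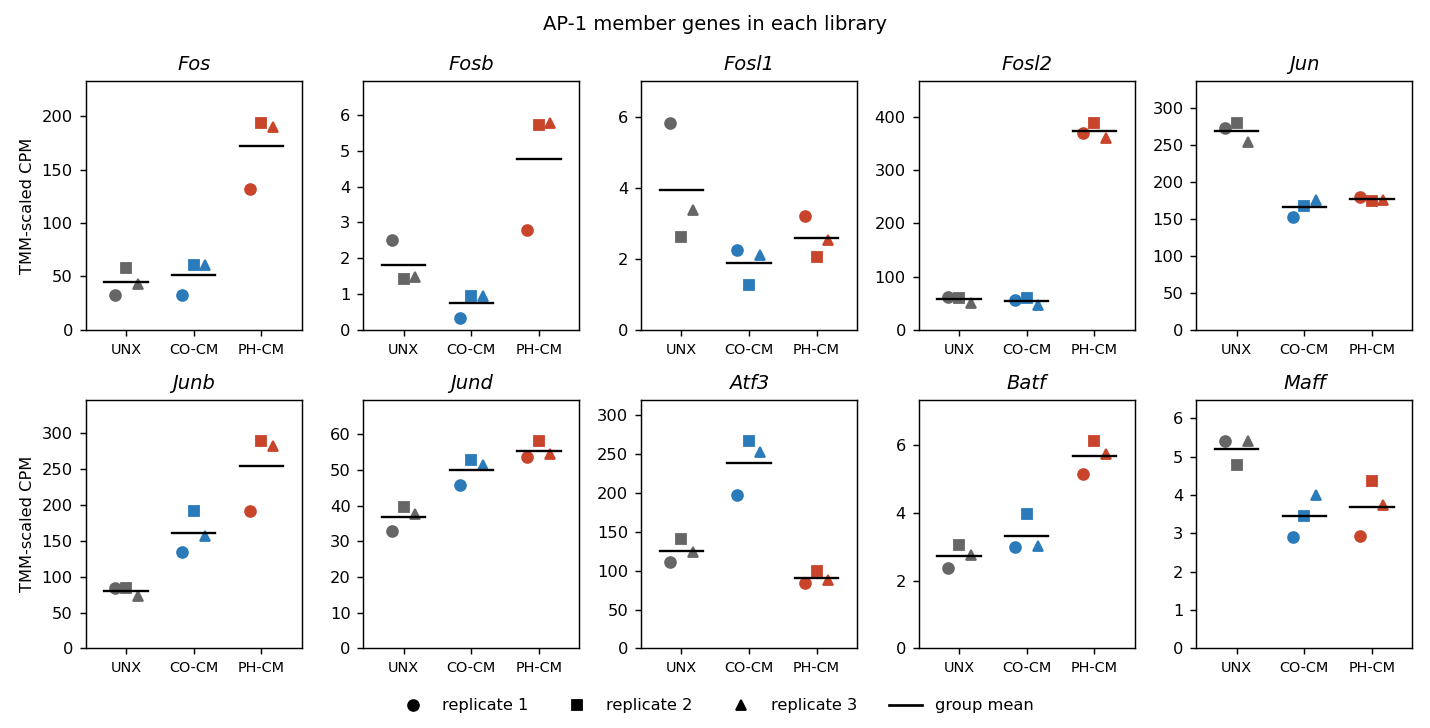
CPM (scaled by TMM, vertical axis from 0) of each AP-1 member in the 3 UNX, 3 CO-CM and 3 PH-CM libraries, with a marker shape per replicate number and a bar for the group mean. The 3 PH-CM libraries stand above all other libraries for Fos, Fosb, Fosl2, Jund and Batf, and the 3 CO-CM libraries stand above all others for Atf3.

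Among the Fos family, Fosl2, which encodes Fra-2, changed most in PH-CM. Its level was 62.5, 59.9 and 51.3 CPM in UNX replicates 1, 2 and 3 and 56.4, 60.7 and 45.9 CPM in CO-CM. In PH-CM it reached 369, 389 and 360 CPM. The PH-CM libraries lay far above the other 6, which overlapped with each other. Fosl2 was 6.44-fold higher in PH-CM than in UNX (log2 fold change 2.69 ± 0.11 SE, n = 3 per group, edgeR adjusted p = 6.94e-09) and 6.86-fold higher than in CO-CM (log2 2.78 ± 0.11, edgeR adjusted p = 7.27e-08). CO-CM and UNX differed by -0.09 on the log2 scale, with a 95% interval from -0.31 to 0.13 (edgeR adjusted p = 0.436). In the test across the 3 groups, Fosl2 had the smallest p of the members and ranked 145 among all 11950 genes.

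Fos, the founding subunit of the family, followed a similar course with more spread between libraries. It stood at 33.0, 58.3 and 42.9 CPM in UNX, at 32.6, 60.9 and 60.8 CPM in CO-CM and at 132, 194 and 190 CPM in PH-CM. Every PH-CM library was above every other library, while UNX and CO-CM overlapped. Fos was 3.84-fold higher in PH-CM than in UNX (log2 1.94 ± 0.27, edgeR adjusted p = 6.82e-05) and 3.34-fold higher than in CO-CM (log2 1.74 ± 0.26, edgeR adjusted p = 0.000542). Between CO-CM and UNX its log2 difference was 0.20, with a 95% interval from -0.38 to 0.78 (edgeR adjusted p = 0.512).

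Fosb, a close relative of Fos, was at a low level and moved in opposite directions under the media. It measured 2.50, 1.43 and 1.49 CPM in UNX, 0.322, 0.958 and 0.942 CPM in CO-CM and 2.80, 5.73 and 5.79 CPM in PH-CM. The 3 groups did not overlap, although replicate 1 of PH-CM lay close to replicate 1 of UNX. Fosb was 2.66-fold higher in PH-CM than in UNX (log2 1.41 ± 0.37, edgeR adjusted p = 0.0056) and 2.42-fold lower in CO-CM than in UNX (log2 -1.27 ± 0.42, edgeR adjusted p = 0.0195). The fall under CO-CM rested on single libraries: without replicate 1 of UNX its log2 value was -0.99 (edgeR adjusted p = 0.0667), and without replicate 1 of CO-CM it was -0.91 (edgeR adjusted p = 0.0556). Without replicate 1 of every group it was -0.63 (edgeR adjusted p = 0.0118). PH-CM was 6.42-fold above CO-CM (log2 2.68 ± 0.41, edgeR adjusted p = 0.000555).

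Fosl1, which encodes Fra-1, was the one Fos family member that was not called higher in PH-CM than in UNX, and without the replicate block it was not called against CO-CM. It measured 5.85, 2.61 and 3.38 CPM in UNX, 2.25, 1.26 and 2.11 CPM in CO-CM and 3.20, 2.06 and 2.53 CPM in PH-CM. The CO-CM libraries lay below all UNX libraries, and the PH-CM libraries overlapped with both other groups. Fosl1 was 2.09-fold lower in CO-CM than in UNX (log2 -1.07 ± 0.31, edgeR adjusted p = 0.0114), a value that came to -0.69 without replicate 1 of UNX (edgeR adjusted p = 0.0398). The log2 difference of PH-CM from UNX was -0.59, with a 95% interval from -1.28 to 0.09 (edgeR adjusted p = 0.104), and that of PH-CM from CO-CM was 0.47, from -0.24 to 1.18 (edgeR adjusted p = 0.278). With the replicate number as a block, as the pairing of the libraries allows, Fosl1 passed the test in both, with log2 values of -0.56 (edgeR adjusted p = 0.00596) and 0.48 (edgeR adjusted p = 0.0312).

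The Jun family split. Junb rose under both media, Jun fell under both and Jund rose slightly under both. Junb, often an antagonist of Jun in promoter assays, stood at 83.8, 83.7 and 72.7 CPM in UNX, at 135, 192 and 156 CPM in CO-CM and at 191, 289 and 282 CPM in PH-CM. UNX lay below all treated libraries, whereas replicate 1 of PH-CM lay just below the highest CO-CM library. Junb was 3.17-fold higher in PH-CM (log2 1.67 ± 0.16, edgeR adjusted p = 5.69e-06) and 2.01-fold higher in CO-CM (log2 1.01 ± 0.16, edgeR adjusted p = 0.000254) than in UNX. PH-CM exceeded CO-CM by 1.57-fold (log2 0.66 ± 0.16, edgeR adjusted p = 0.00873).

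Jun, the partner that JNK phosphorylates, stood at 273, 280 and 254 CPM in UNX, at 153, 167 and 176 CPM in CO-CM and at 180, 174 and 176 CPM in PH-CM. All treated libraries lay below all untreated ones, and the treated groups overlapped. Jun was 1.52-fold lower in PH-CM (log2 -0.60 ± 0.06, edgeR adjusted p = 4.77e-06) and 1.63-fold lower in CO-CM (log2 -0.70 ± 0.06, edgeR adjusted p = 2.18e-06) than in UNX. The media differed by 0.10 on the log2 scale, with a 95% interval from -0.03 to 0.23 (edgeR adjusted p = 0.209). Jund, the most constant Jun protein, measured 32.8, 39.7 and 37.7 CPM in UNX, 45.8, 52.8 and 51.4 CPM in CO-CM and 53.7, 58.1 and 54.4 CPM in PH-CM. The 3 groups did not overlap in Jund, with small steps between them. The step was 1.51-fold from UNX to PH-CM (log2 0.59 ± 0.08, edgeR adjusted p = 4.99e-05) and 1.36-fold from UNX to CO-CM (log2 0.44 ± 0.08, edgeR adjusted p = 0.000484). PH-CM differed from CO-CM by 0.15, with a 95% interval from -0.02 to 0.32 (edgeR adjusted p = 0.156).

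Atf3, a stress-induced factor known to restrain inflammatory genes in macrophages, was the member that separated the media in the reverse sense. It measured 111, 141 and 124 CPM in UNX, 198, 267 and 253 CPM in CO-CM and 83.6, 99.5 and 88.3 CPM in PH-CM. The 3 groups did not overlap, with CO-CM highest and PH-CM lowest. Atf3 was 1.91-fold higher in CO-CM than in UNX (log2 0.93 ± 0.12, edgeR adjusted p = 5.25e-05) and 1.39-fold lower in PH-CM than in UNX (log2 -0.47 ± 0.12, edgeR adjusted p = 0.00428). PH-CM was 2.65-fold below CO-CM (log2 -1.40 ± 0.12, edgeR adjusted p = 1.27e-05).

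Batf and Maff were at a few CPM. Batf, which pairs with Jun proteins and cooperates with IRF factors, measured 2.38, 3.05 and 2.77 CPM in UNX, 2.98, 3.98 and 3.01 CPM in CO-CM and 5.16, 6.12 and 5.73 CPM in PH-CM. PH-CM lay above both other groups, which overlapped. Batf was 2.07-fold higher in PH-CM than in UNX (log2 1.05 ± 0.15, edgeR adjusted p = 8.3e-05) and 1.71-fold higher than in CO-CM (log2 0.77 ± 0.15, edgeR adjusted p = 0.00217). CO-CM differed from UNX by 0.28, with a 95% interval from -0.05 to 0.61 (edgeR adjusted p = 0.12), and passed the test with the replicate block (log2 0.28, edgeR adjusted p = 0.0406). Maff, a small Maf protein without an activation domain, measured 5.40, 4.78 and 5.41 CPM in UNX, 2.90, 3.46 and 3.99 CPM in CO-CM and 2.93, 4.36 and 3.74 CPM in PH-CM. All treated libraries lay below the untreated ones. Maff was 1.51-fold lower in CO-CM (log2 -0.59 ± 0.16, edgeR adjusted p = 0.00763) and 1.42-fold lower in PH-CM (log2 -0.50 ± 0.16, edgeR adjusted p = 0.0162) than in UNX. The fall in PH-CM did not pass the test without replicate 1 of PH-CM (log2 -0.36, edgeR adjusted p = 0.0614) or without replicate 1 of every group (log2 -0.34, edgeR adjusted p = 0.0611). The media differed by 0.09 on the log2 scale, from -0.28 to 0.46 (edgeR adjusted p = 0.705).

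**Figure D2:**
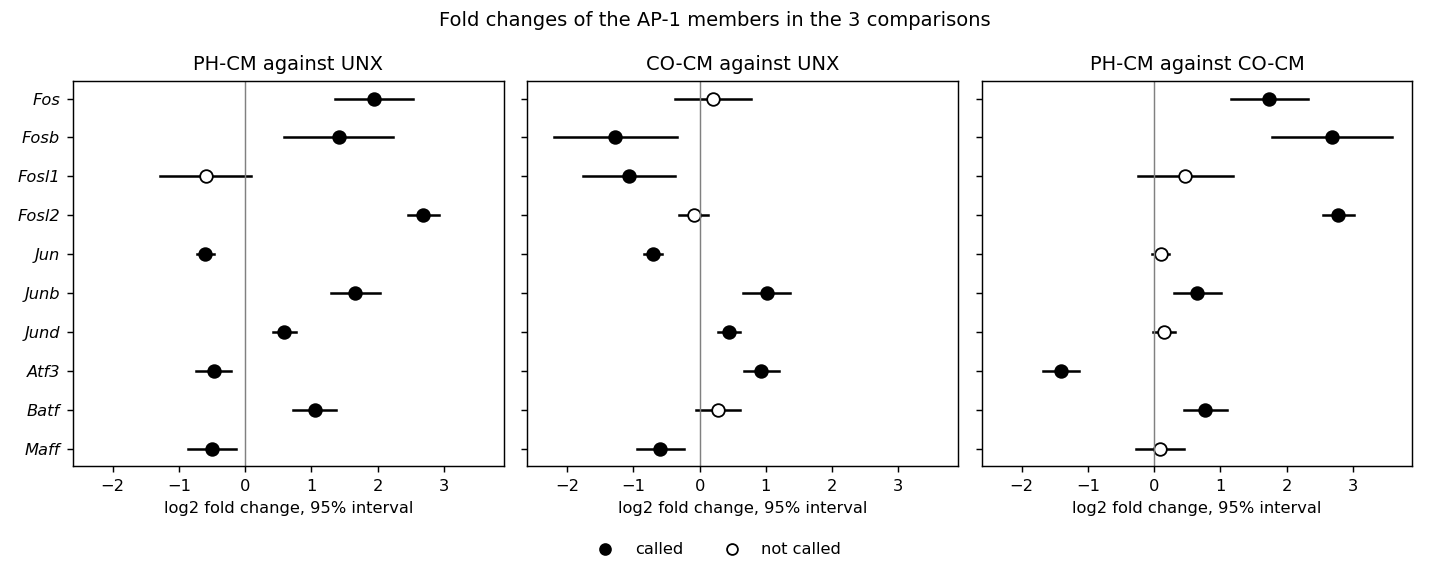
Log2 fold change (horizontal axis) of each AP-1 member with its 95% interval in the 3 comparisons, filled where the gene was called and open where it was not. Fosl2 has the highest value in PH-CM against UNX (2.69) and in PH-CM against CO-CM (2.78), and Atf3 lies right of 0 in CO-CM against UNX (0.93) and left of 0 in both other comparisons.

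To compare levels between genes, the deposited RPKM values were used, which are reads divided by the exon length of the gene and by the size of the library. The members summed to 238 ± 16 RPKM in UNX, 289 ± 35 in CO-CM and 356 ± 38 in PH-CM (mean ± SD, n = 3 each). In UNX the order of levels was Jun with 86.7 ± 4.8 RPKM, Atf3 with 59.9 ± 6.6, Junb with 35.8 ± 3.2, Jund with 22.6 ± 1.9, Fos with 19.5 ± 5.4 and Fosl2 with 6.16 ± 0.68. Maff, Fosl1 and Batf were between 2.00 and 2.52 RPKM and Fosb at 0.299 ± 0.10. The libraries of Jund and Fos overlapped, as did those of Maff and Fosl1 and those of Fosl1 and Batf.

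In CO-CM, Atf3 led with 109 ± 15 RPKM, ahead of Junb with 68.5 ± 11.1 and Jun with 50.7 ± 2.9. Jund with 29.3 ± 1.6 RPKM, Fos with 21.3 ± 6.5 and Fosl2 with 5.50 ± 0.77 came next, then Batf, Maff, Fosl1 and Fosb. No neighbours in that order overlapped in the deposited values, though the places of Maff and Fosl1 may depend on the exonic length used. In PH-CM, Junb led with 109 ± 22 RPKM, followed by Fos with 72.1 ± 13.7 and Jun with 54.8 ± 1.6. Atf3 stood at 41.5 ± 3.3 RPKM, Fosl2 at 38.0 ± 1.4 and Jund at 32.8 ± 1.1. Batf, at 3.98 ± 0.29 RPKM, Maff, Fosl1 and Fosb were last. The libraries of Fos and Jun overlapped in PH-CM, as did those of Atf3 and Fosl2 and those of Maff and Fosl1.

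As a share of the summed RPKM, Jun made up 36.5% ± 1.8 in UNX, 17.6% ± 1.6 in CO-CM and 15.5% ± 2.2 in PH-CM. Junb made up 15.1% ± 1.2, 23.6% ± 1.7 and 30.3% ± 3.2 in the same order. The share of Junb therefore overtook that of Jun in all 6 treated libraries: the ratio of Junb to Jun in RPKM was 0.396 to 0.426 in UNX, 1.23 to 1.6 in CO-CM and 1.47 to 2.29 in PH-CM. Atf3 made up 25.1% ± 1.6 in UNX, 37.5% ± 0.83 in CO-CM and 11.7% ± 0.80 in PH-CM. The Fos family together held 11.9% ± 1.1 of the sum in UNX and 9.62% ± 1.1 in CO-CM but 31.5% ± 0.52 in PH-CM. In RPKM the Fos family summed to 28.4 ± 4.4, 28.0 ± 6.0 and 112 ± 14. The ratio of the Fos to the Jun family was 0.172 to 0.221 in UNX, 0.157 to 0.208 in CO-CM and 0.562 to 0.581 in PH-CM. The rank of Jund and this ratio depend on the shared exonic bases. With Jun, Junb and Jund divided by their unshared bases, a choice made after seeing the data, Jund came to 47.7 ± 4.1 RPKM in UNX, 61.8 ± 3.5 in CO-CM and 69.2 ± 2.4 in PH-CM. By group means it was below 2 of the other members in each group and above Jun in both media. In CO-CM the libraries of Jund (57.9 to 64.3 RPKM) overlapped with those of Junb (63.7 to 87.2) and of Jun (51.7 to 58.0). In PH-CM those of Jund (67.6 to 71.9) overlapped with those of Fos (56.3 to 80.7). The ratio of the Fos to the Jun family then came to 0.140 to 0.178 in UNX, 0.122 to 0.162 in CO-CM and 0.442 to 0.466 in PH-CM. Within the Fos family, Fosl2 stood at 0.250 to 0.460 of the RPKM of Fos in UNX, at 0.183 to 0.420 in CO-CM and at 0.461 to 0.679 in PH-CM. Shares are of transcripts, and protein was not measured in these files.

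**Figure D3:**
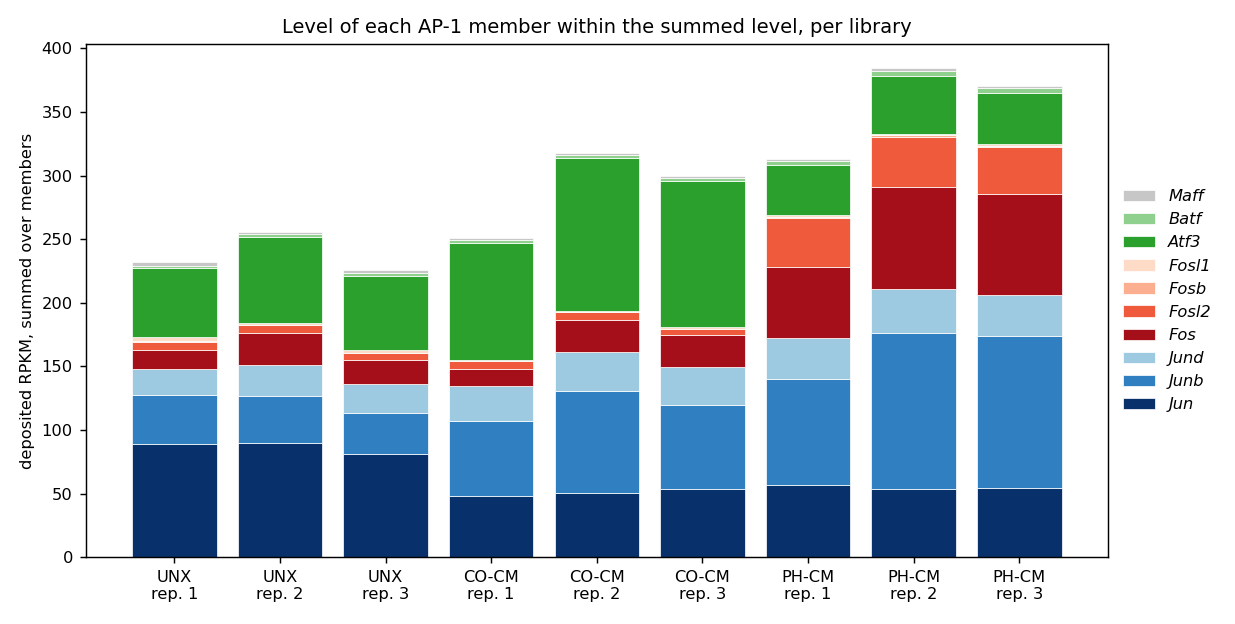
Deposited RPKM of the 10 members stacked per library (vertical axis from 0), with Jun family genes in blue, Fos family genes in red and Atf3, Batf and Maff in green and grey. Jun is the widest band in UNX (36.5% of the sum), Atf3 in CO-CM (37.5%) and Junb in PH-CM (30.3%), and the bands of Fos and Fosl2 widen in PH-CM.

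Some members also differed between libraries of the same group in a way that followed the replicate number. Fos, Jund, Atf3 and Batf were lowest in replicate 1 of all 3 groups. For Fos, replicate 1 lay below the mean of replicates 2 and 3 by a log2 difference of -0.60 in UNX, -0.90 in CO-CM and -0.54 in PH-CM, and for Atf3 by -0.25, -0.40 and -0.16. Fosl1 was highest in replicate 1 of all 3 groups, by 0.97, 0.46 and 0.48. Of all genes tested, 16.5% were lowest and 14.9% highest in replicate 1 of every group, and whether the number marks one repeat of the experiment is not given in the sources used here. Fosb was highest in replicate 1 of UNX, by 0.76, and lowest in replicate 1 of CO-CM and of PH-CM, by -1.48 and -1.04. For Fosl2, Jun, Junb and Maff, replicate 1 did not keep the same position in all 3 groups. Without replicate 1 of every group, 8, 7 and 6 members were called in PH-CM against UNX, CO-CM against UNX and PH-CM against CO-CM, beside 7244 (62.0%), 6449 (55.2%) and 3377 (28.9%) of the 11675 genes tested. With the replicate number as a block, 10, 8 and 7 members were called, beside 64.6%, 58.9% and 30.4% of all genes.

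The other dimer partners of AP-1 and Maf proteins are 15 genes, of which 14 could be tested. In PH-CM against UNX, 7 rose and 1 fell, with a median log2 fold change of 0.29, against 3 and 4 in CO-CM against UNX (median 0.16). The counts of this list and of the lists that follow are to be read beside all genes tested, of which 31.3% were called higher and 31.7% lower in PH-CM against UNX, 28.0% and 28.9% in CO-CM against UNX, and 12.2% and 15.0% in PH-CM against CO-CM, with medians of 0.0072, 0.0002 and -0.0064. The 8 of 14 partners called in PH-CM against UNX are near that background. Nfe2, an erythroid and megakaryocyte partner of small Maf proteins, was 0.809 ± 0.25 CPM in UNX and 2.92 ± 0.13 in PH-CM (log2 1.84, edgeR adjusted p = 2.05e-05). Bach2, a repressor that pairs with small Maf proteins, rose from 1.35 ± 0.41 to 2.87 ± 0.39 CPM (log2 1.09, edgeR adjusted p = 0.00179). Batf3, a relative of Batf, fell from 1.94 ± 0.28 to 0.334 ± 0.10 CPM (log2 -2.54, edgeR adjusted p = 7.12e-06). In CO-CM, Batf3 fell too, to 1.04 ± 0.22 CPM (log2 -0.90, edgeR adjusted p = 0.00422), Bach2 rose too, to 2.50 ± 0.61 CPM (log2 0.89, edgeR adjusted p = 0.00687), and Nfe2 stood at 1.11 ± 0.14 CPM (log2 0.44, edgeR adjusted p = 0.106). Between the media, 5 were higher in PH-CM and 1 lower, with a median of 0.19.

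The kinases and regulators that act on AP-1 genes (MAP kinases, ternary complex factors and MEF2 factors) are 28 genes, of which 26 could be tested. In PH-CM against UNX 7 rose and 5 fell, and the median was -0.05. Mef2d, a MEF2 factor that can act on the Jun promoter, rose from 111 ± 3.7 to 253 ± 8.9 CPM (log2 1.19, edgeR adjusted p = 1.68e-08). Map2k6, a kinase upstream of p38, fell from 6.68 ± 0.84 to 3.03 ± 0.33 CPM (log2 -1.14, edgeR adjusted p = 2.09e-05), and Mapk11, which encodes p38 beta, fell from 7.16 ± 1.5 to 3.94 ± 0.69 CPM (log2 -0.86, edgeR adjusted p = 0.00381). Rps6ka3, which encodes the kinase RSK2 downstream of ERK, fell from 247 ± 6.1 to 145 ± 8.4 CPM (log2 -0.76, edgeR adjusted p = 2.4e-07). All 4 were called in the same direction in CO-CM against UNX. There Mef2d rose to 171 ± 9.8 CPM (log2 0.63, edgeR adjusted p = 2.46e-06), and Map2k6, Mapk11 and Rps6ka3 fell to 5.04 ± 0.55, 3.32 ± 0.90 and 173 ± 3.9 CPM (log2 -0.41, -1.10 and -0.52, edgeR adjusted p = 0.0161, 0.000926 and 5.94e-06). CO-CM raised 4 and lowered 7 against UNX (median -0.16), and 5 were higher and 1 lower in PH-CM than in CO-CM (median 0.11). These are transcript levels, and the activity of the kinases was not measured here.

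Other immediate early genes split in PH-CM. Of 18 genes 17 could be tested, of which 7 rose and 8 fell against UNX, with a median of -0.06. Myc, a growth regulator, fell from 91.2 ± 13.0 to 8.28 ± 0.40 CPM (log2 -3.46, edgeR adjusted p = 1.2e-08). Egr3, a zinc finger factor, fell from 2.09 ± 0.71 to 0.200 ± 0.16 CPM (log2 -3.38, edgeR adjusted p = 5.36e-05), and its relative Egr1, a target of serum response factor, fell from 27.6 ± 9.5 to 5.23 ± 0.047 CPM (log2 -2.40, edgeR adjusted p = 2.16e-06). Nr4a2, an orphan nuclear receptor, rose from 2.15 ± 0.36 to 17.3 ± 1.8 CPM (log2 3.02, edgeR adjusted p = 5.24e-08). In CO-CM 2 rose and 8 fell against UNX (median -0.22), and between the media 7 were higher and 3 lower in PH-CM (median 0.19). Myc, Egr1 and Egr3 fell in CO-CM too, to 12.1 ± 2.5, 6.74 ± 0.60 and 0.883 ± 0.17 CPM (log2 -2.91, -2.03 and -1.23, edgeR adjusted p = 5.4e-08, 8.45e-06 and 0.011), while Nr4a2 stood at 2.64 ± 0.49 CPM (log2 0.30, edgeR adjusted p = 0.128).

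Genes known as AP-1 targets in other systems did not move one way. Of 22 genes 19 could be tested, and in PH-CM against UNX 6 rose and 10 fell, with a median of -0.27. Il1b, an inflammatory cytokine, rose from 0.155 ± 0.053 to 9.78 ± 2.6 CPM (log2 6.00, edgeR adjusted p = 2.28e-06). Ccnd1, which encodes cyclin D1, fell from 500.0 ± 129 to 9.39 ± 1.6 CPM (log2 -5.73, edgeR adjusted p = 1.55e-08). Ccl2, a monocyte chemokine, fell from 384 ± 49 to 10.3 ± 1.9 CPM (log2 -5.22, edgeR adjusted p = 5.49e-08), and Plau, which encodes urokinase, fell from 809 ± 109 to 32.3 ± 2.9 CPM (log2 -4.65, edgeR adjusted p = 2.51e-07). In CO-CM, Ccl2, Ccnd1 and Plau fell too, to 8.19 ± 3.7, 28.8 ± 7.6 and 120 ± 53 CPM (log2 -5.55, -4.11 and -2.75, edgeR adjusted p = 6.85e-08, 1.3e-07 and 8.69e-06), and Il1b rose to 1.04 ± 0.76 CPM (log2 2.76, edgeR adjusted p = 0.00187). CO-CM raised 1 and lowered 8 against UNX (median -0.24), and 8 were higher and 5 lower in PH-CM than in CO-CM (median 0.32).

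Atf3 is a known target of ATF4 in the stress response, so 8 genes of that response were set beside it. In PH-CM against UNX 3 rose and 4 fell (median -0.53), in CO-CM against UNX 2 rose and 4 fell (median -0.24), and between the media 2 were higher and 5 lower in PH-CM (median -0.47). Atf4 stood at 326 ± 25 CPM in UNX, 211 ± 32 in CO-CM and 166 ± 11 in PH-CM. Chac1, an enzyme that degrades glutathione, fell most in PH-CM against UNX, from 6.18 ± 1.6 to 0.331 ± 0.13 CPM (log2 -4.21, edgeR adjusted p = 1.54e-06), and Asns, the asparagine synthetase, fell from 82.6 ± 21.6 to 14.3 ± 3.1 CPM (log2 -2.52, edgeR adjusted p = 5.8e-06). Ddit4, an inhibitor of mTOR signalling, rose from 4.47 ± 0.62 to 14.7 ± 1.0 CPM (log2 1.72, edgeR adjusted p = 3.1e-07). In CO-CM, Chac1 and Asns fell too, to 1.25 ± 0.46 and 30.8 ± 8.6 CPM (log2 -2.31 and -1.42, edgeR adjusted p = 4.95e-05 and 0.000331), and Ddit4 stood at 4.71 ± 0.40 CPM (log2 0.07, edgeR adjusted p = 0.587). The 2 that rose in CO-CM, named after their values were seen, were Ddit3 and Ppp1r15a, the latter a phosphatase subunit that reverses the translational block. Ddit3, which encodes CHOP, was 25.0 ± 1.4 CPM in UNX, 34.6 ± 1.8 in CO-CM and 22.0 ± 2.0 in PH-CM (log2 of CO-CM against UNX 0.47, edgeR adjusted p = 0.000246). Ppp1r15a was 21.5 ± 2.5 CPM in UNX, 39.0 ± 4.7 in CO-CM (log2 0.86, edgeR adjusted p = 2.39e-05) and 39.6 ± 0.58 in PH-CM (log2 0.88, edgeR adjusted p = 1.56e-05).

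**Figure D4:**
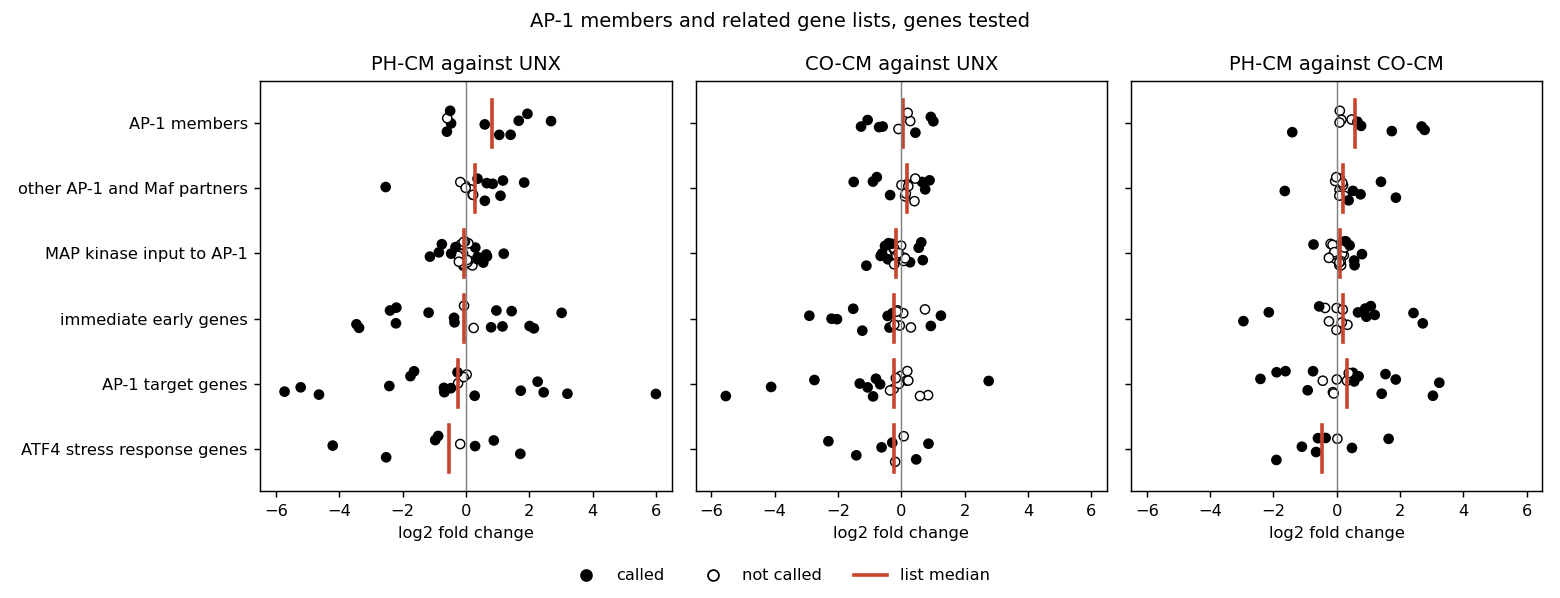
Log2 fold change (horizontal axis) of each tested gene of the AP-1 members and of 5 related gene lists in the 3 comparisons, filled where called, with the list median as a red line. The members have the highest median of the 6 lists in PH-CM against UNX (0.82) and in PH-CM against CO-CM (0.56), and the target genes spread from -5.73 to 6.00 in PH-CM against UNX.

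The genes whose pattern over the 9 libraries was most like that of Fosl2, by Pearson's correlation of log2 CPM, were Ttc39b (r = 0.9958), Hexim1 (0.9956), Edil3 (0.9949), Cytip (0.9947) and Sh3bgrl2 (0.9946). These values describe 9 points that fall into 3 groups, and 11 of all genes tested had an r above 0.99. By that choice all 5 were higher in PH-CM, and they differed in the size of the step. Cytip, a cytohesin-binding protein of leukocytes, measured 12.8, 14.1 and 12.7 CPM in UNX, 11.2, 15.9 and 12.6 in CO-CM and 143, 178 and 165 in PH-CM. Edil3, an integrin-binding matrix protein, stood at 8.02, 7.61 and 8.40 CPM in UNX, at 6.70, 7.98 and 6.93 in CO-CM and at 54.3, 55.4 and 55.8 in PH-CM. Hexim1, an inhibitor of the elongation kinase P-TEFb, moved least, from 49.9, 49.0 and 49.1 CPM in UNX to 61.7, 63.9 and 63.1 in PH-CM.

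**Figure D5:**
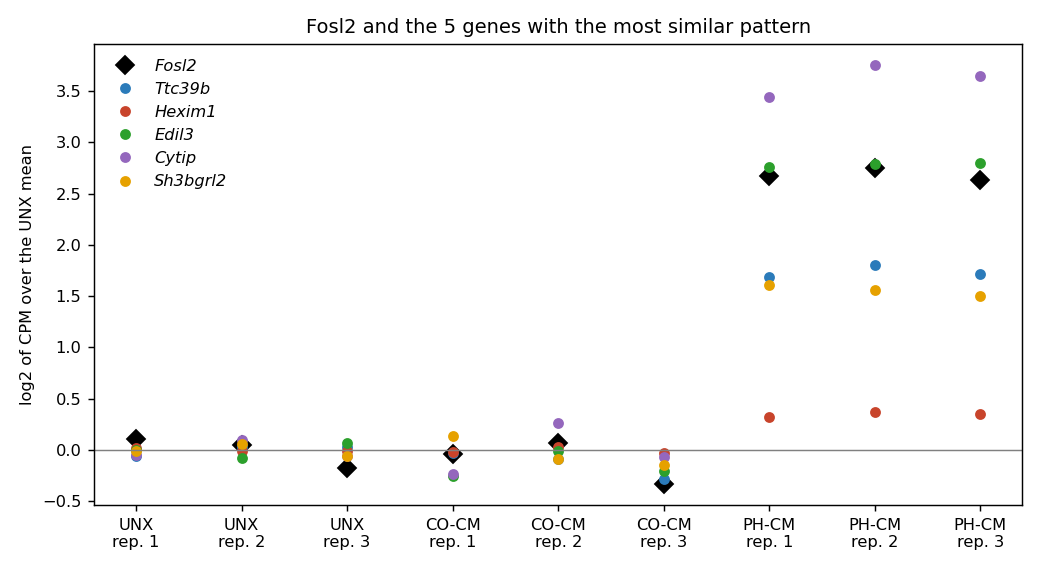
Log2 of the CPM over the UNX mean (vertical axis) of Fosl2 and of the 5 genes with the most similar pattern, in each library. The step in PH-CM ranges from 0.35 on the log2 scale for Hexim1 to 3.62 for Cytip, with Fosl2 at 2.69. UNX and CO-CM libraries scatter around 0, with CO-CM replicate 3 of Fosl2 at 45.9 CPM beside a UNX mean of 57.9.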

How the data were processed

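RNA-Seq libraries of BMDMs were made with a NuGen mRNA kit and sequenced as read pairs on a NovaSeq. After trimming with AfterQC, the authors aligned the reads by STAR to the GRCm38 genome and assigned them to exons with featureCounts 1.6.2. The deposited counts are these whole reads, summed by gene and not normalized. The options listed for the counting set neither strand nor read pairs, so counting was without strand and with mates counted singly, and among counts under 20 most were even in every library. The deposited RPKM values are the authors' own scaling of these counts by exon length and counted reads, with no factor for composition. Comparison tables with the authors' fold changes, average levels and p-values were not used.

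Libraries were grouped by the treatment and replicate number in their labels. Genes above 1 CPM in at least 3 libraries (11950 of 53465) were scaled by TMM and fitted in edgeR 4.0.16 (R 4.3.3) with one mean per group over all 9 libraries, and the 3 pairs of groups were compared by the quasi-likelihood test. Where the study describes an exact test, that test was an alternative. SE values were derived from the F statistic. The script was tested on simulated counts. Libraries of a group differed from each other by more than sampling noise. Replicate numbers pair the libraries: deviations from group means correlated at 0.276 to 0.484 in all 9 pairs with the same number. The 18 other pairs gave -0.376 to 0.0423, but their negative values follow in part from centring each group on its mean. A fit with the number as a block was therefore also made.

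The members and lists were chosen with earlier results of these data known. One gene that the rule for named genes selects is not reported here. All 10 members are named with each library's value. Of the other lists, up to 4 called genes with the largest change in PH-CM against UNX are named, with a mean CPM of at least 1 and groups that do not overlap, and the 5 genes most correlated with the member of smallest p across groups (log2 CPM, prior count 2). Positions come from GENCODE and promoters from RefSeq. Alternatives were other tests (DESeq2 1.42.0 among them), scalings, filters, thresholds and left-out libraries, and leaving out replicate 1 of every group and dividing Jun, Junb and Jund by their unshared exonic bases were added after seeing the data.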

Additional observations from a re-analysis of the deposited data

Results flagged for a closer look

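For 2 members the effects of the media differed, with opposite directions against UNX. The effect of PH-CM on Fosb exceeded that of CO-CM by 2.68 on the log2 scale (edgeR quasi-likelihood test of PH-CM against CO-CM, Benjamini-Hochberg adjusted p = 0.000555). All 3 PH-CM libraries lay above the UNX libraries and all 3 CO-CM libraries below them, and the value stayed between 2.33 and 2.96 over the alternatives. For Atf3 the effect of PH-CM differed from that of CO-CM by -1.40 (edgeR adjusted p = 1.27e-05), between -1.52 and -1.32 over the alternatives. All 3 PH-CM libraries lay below UNX and all 3 CO-CM libraries above.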

How the results depend on the processing

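Over 21 alternative fits, those without single libraries included, the 22 calls of members kept their direction, and all but those of Fosb in CO-CM against UNX and Maff in PH-CM against UNX passed in each. With a fold change threshold of 2, 5, 3 and 4 members were called in PH-CM against UNX, CO-CM against UNX and PH-CM against CO-CM, beside 9, 7 and 6 at 1.2, and 2153, 1655 and 612 of all genes. With 1 library left out, the values for Fosb ranged from -1.49 to -0.91 and for Maff from -0.64 to -0.36. Differences that did not pass turned direction: Fosl2 in CO-CM against UNX ranged from -0.19 to 0.018 and Maff in PH-CM against CO-CM from -0.049 to 0.24. Fosl1 in PH-CM against UNX passed without UNX replicate 2 (log2 -0.83, edgeR adjusted p = 0.0293), with no filter on low counts (log2 -0.64, edgeR adjusted p = 0.0106) and with the replicate block, but it shrank to -0.21 without UNX replicate 1 (edgeR adjusted p = 0.475) and to -0.39 without replicate 1 of every group (edgeR adjusted p = 0.196). Over the alternatives its adjusted p ran from 0.00596 to 0.475. The cause was not tested. With the replicate block, 10, 8 and 7 members and 7714, 7037 and 3632 of all genes were called, and the pairing changed no other call than those of Fosl1 and Batf given above. Dividing Jun, Junb and Jund by their unshared exonic bases, which assumes even coverage and that all reads on shared bases were left out, changes shares of the summed RPKM by its construction. In UNX, Jund came to 17.5%, Jun to 34.3%, Atf3 to 21.9%, Fosl2 to 2.26% and Batf to 0.731%. In CO-CM, Jund came to 18.8%, Atf3 to 32.8%, Batf to 0.699% and Maff to 0.481%. In PH-CM, Jund came to 17.2%, Fos to 17.7%, Fosl2 to 9.44%, Atf3 to 10.3%, Batf to 0.984% and Maff to 0.420%. The mean ratio of the Fos to the Jun family came to 0.157 in UNX, 0.146 in CO-CM and 0.456 in PH-CM, beside 0.195, 0.187 and 0.572. Fosl1 was not corrected. Scalings moved the median of all genes by at most 0.07 on the log2 scale. Depth limits Fosb most, at 22 reads in its lowest library, which with mates counted singly came from fewer fragments.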
